A study of Homo sapiens with 16 samples.

Results

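The genes described here are 9 members of the signalling route that runs through the receptor FLT3, the RAS proteins and the transcription factor STAT5, namely FLT3, NRAS, STAT5A, STAT5B, PIM1, PIM2, SOCS2, CISH and DUSP6. They were chosen by name and not by a measured value, are 9 of the 18991 genes in the count table, and all passed the filter on low counts that left 12517 genes for testing. They were read in MOLM13, a human cell line established from acute myeloid leukemia that carries an internal tandem duplication in FLT3 beside a fusion of KMT2A. Cells of every group expressed Cas9 from a lentivirus and were kept under blasticidin and puromycin. The sgYBX1 cells carried a guide RNA against YBX1, whose product is an RNA-binding protein with a cold-shock domain, and the sgLUC cells carried a non-targeting guide. Both were collected at 14 days, which the paper describes as puromycin selection and expansion before fractionation. Polyadenylated RNA was sequenced from polysomal RNA, the pooled heavy fractions of a sucrose gradient in which mRNAs bound by several ribosomes sediment, and from total RNA of unfractionated cells. Cells for the gradients were treated with cycloheximide before lysis. The 4 groups, polysomal sgYBX1, polysomal sgLUC, total sgYBX1 and total sgLUC, held 4 libraries each. All sgYBX1 libraries came from the same guide in the same cell line, and p-values measure only the spread between these libraries.

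FLT3 is a receptor tyrosine kinase of early blood progenitors. Once active, it signals through RAS to the kinases RAF, MEK and ERK, through PI3K to AKT and, when it carries the internal tandem duplication, strongly to STAT5. STAT5 switches on the genes of the kinases PIM1 and PIM2 and of the feedback inhibitors SOCS2 and CISH, while ERK activity raises DUSP6, a phosphatase that acts back on ERK, so the mRNAs of these targets are commonly read as signs of pathway output.

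Library totals lay between 38326270 and 66164414 counts. Levels are given in CPM, read counts scaled to a common library size with TMM factors, which set the bulk of genes to the same level in every library. YBX1 mRNA averaged 645 ± 17.1 CPM in polysomal sgYBX1 and 875 ± 76.1 CPM in polysomal sgLUC libraries, and 519 ± 23.3 CPM in total sgYBX1 and 887 ± 21.2 CPM in total sgLUC libraries (SD, n = 4 each; exact two-sided permutation p = 0.0286 in each fraction, the smallest that 4 against 4 can give). It was thus lower with its guide in both fractions, at 58.6% of the sgLUC level in total RNA, although an mRNA level measures neither editing nor protein. The paper assessed YBX1 protein apart from this, by Western blot of 4 replicate cultures later lysed for fractionation. Replicates varied more in polysomal RNA, where the biological coefficient of variation was 0.149 in sgYBX1 and 0.220 in sgLUC libraries, than in total RNA, where it was 0.0380 in sgYBX1 and 0.0567 in sgLUC libraries. Of 13 markers of monocytic leukemia cells, 12 reached 1 CPM in total RNA with either guide. Of 8 erythroid and megakaryocyte markers none did in any group, and of 8 lymphoid markers 2 did in total RNA and 3 in polysomal RNA. Of 8 epithelial and stromal markers, 1 did in total RNA and 2 in polysomal RNA. CD3E, MS4A1, EPCAM and CDH1 were below 1 CPM in every group, and CSF2RA, a monocytic marker, was at 0 counts in all. The summed lymphoid markers ran between 101 and 124 CPM in polysomal sgYBX1 and between 132 and 167 CPM in polysomal sgLUC libraries, and the epithelial and stromal ones between 33.9 and 43.9 CPM in polysomal sgYBX1 and between 24.3 and 30.0 CPM in polysomal sgLUC libraries. Their part in the results below was not tested.

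**Figure D1:**
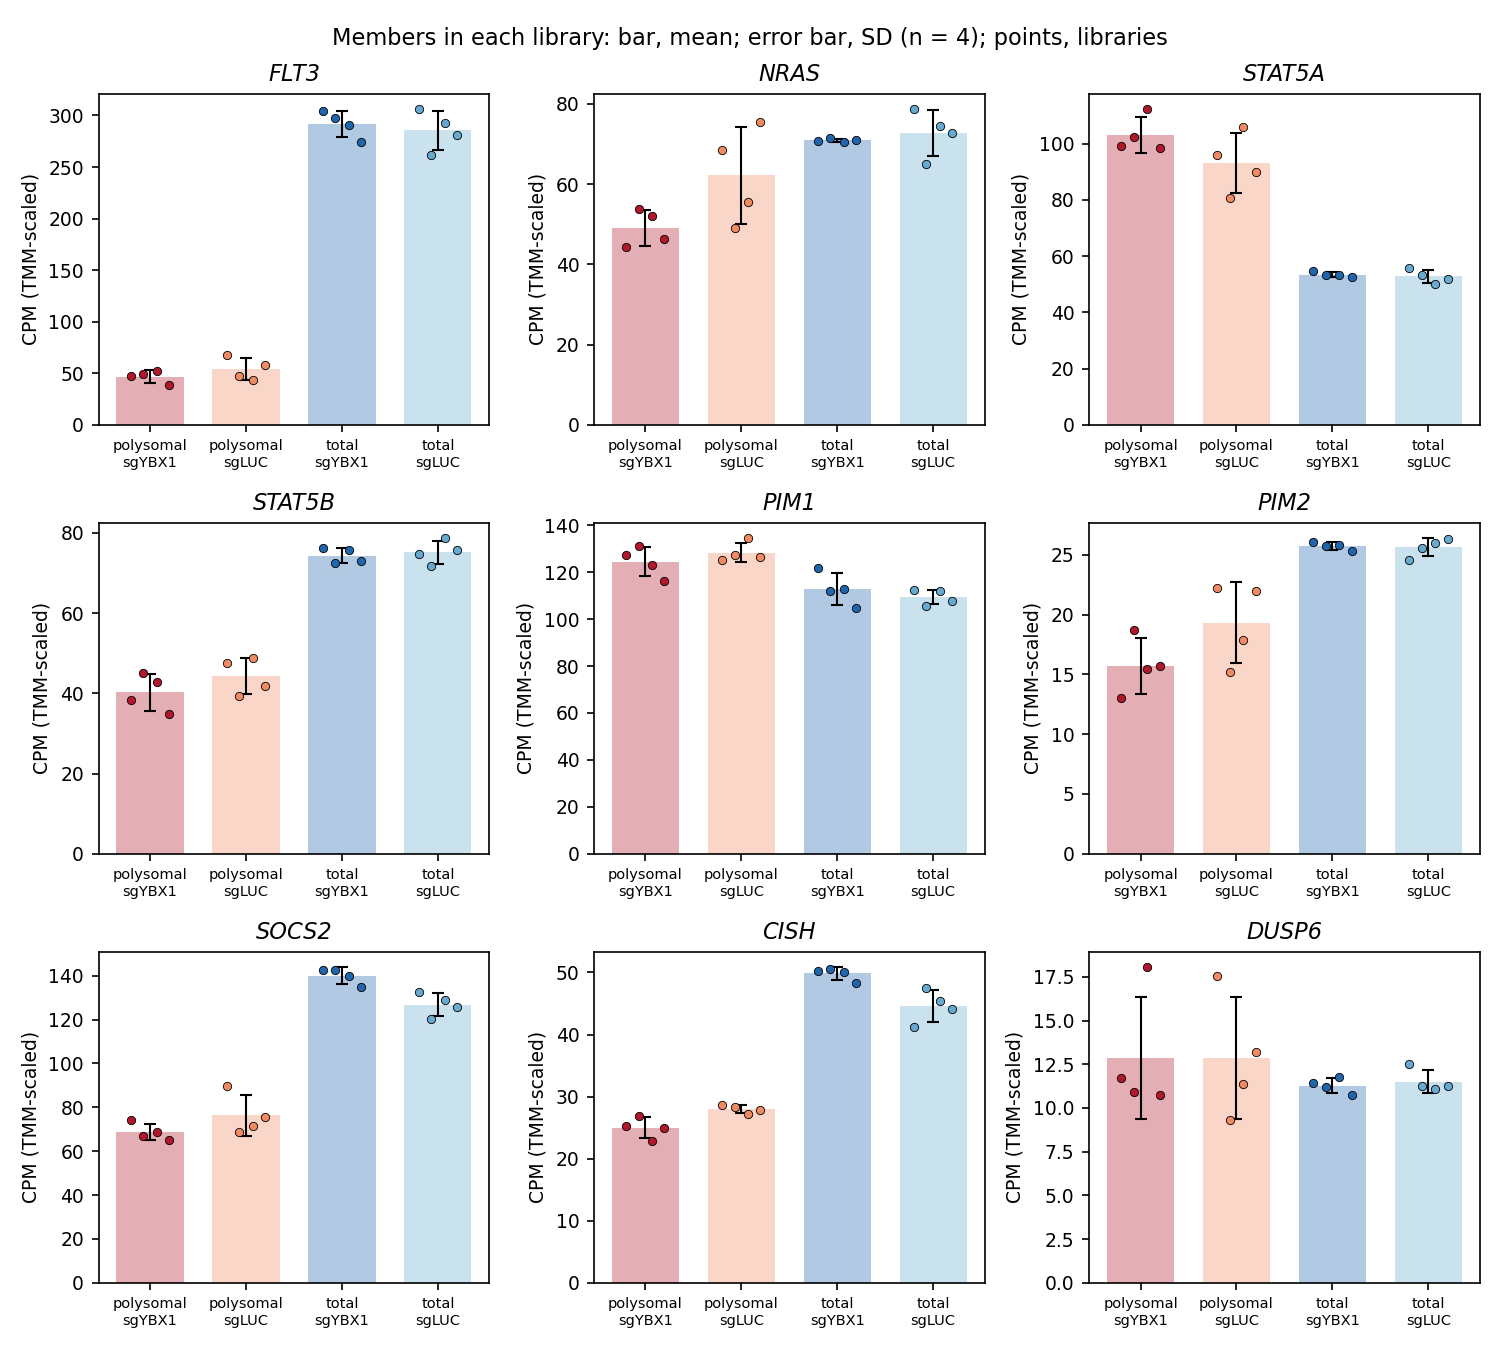
Level of each of the 9 genes in CPM (counts scaled to library size with TMM factors) in polysomal and total RNA of sgYBX1 and sgLUC cells, with bars for means, error bars for SDs over 4 libraries and points for libraries. FLT3 reached at most 67.2 CPM in polysomal and at least 262 CPM in total libraries, while STAT5A lay higher in polysomal libraries on this scale, though not without TMM factors.

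The order of the genes by level differed between the fractions. Levels of different genes are compared per kilobase of transcript, on the scale of CPM per kilobase, and depend on the transcript chosen for the length. FLT3 held rank 1 in total RNA, at 76.0 ± 3.34 in sgYBX1 and 74.3 ± 4.87 in sgLUC cells (SD, n = 4), but only rank 5 in polysomal RNA of sgYBX1 cells, at 12.2 ± 1.57, and rank 4 in that of sgLUC cells, at 14.1 ± 2.78. PIM1 held rank 1 in polysomal RNA, at 47.0 ± 2.39 in sgYBX1 and 48.4 ± 1.57 in sgLUC cells, and rank 3 in total RNA, at 42.6 ± 2.63 in sgYBX1 and 41.3 ± 1.2 in sgLUC cells. DUSP6 was last in all 4 groups, between 2.56 and 2.92 CPM per kilobase. Neighbours whose library ranges overlapped, and so cannot be put in order, were FLT3, NRAS and CISH in polysomal RNA, STAT5A and SOCS2 in polysomal RNA, PIM2 and STAT5B in polysomal RNA, and PIM2 and STAT5A in total RNA. In total RNA of sgLUC cells the ranges of SOCS2 and PIM1, and of NRAS and STAT5B, overlapped as well.

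FLT3, the receptor gene on chromosome 13 (28003274 to 28100576, minus strand; positions are RefSeq, GRCh38.p14), was far less represented on polysomes than in total RNA. Its level was 47.4, 48.8, 52.4 and 38.2 CPM in polysomal and 304, 297, 291 and 274 CPM in total libraries of sgYBX1 cells. In sgLUC cells it was 67.2, 47.6, 43.6 and 58.2 CPM in polysomal and 306, 262, 293 and 281 CPM in total libraries. No polysomal library came near a total library with either guide. The log2 ratio of polysomal over total RNA was -2.64 ± 0.08 (SE) in sgYBX1 cells (adjusted p = 2.62e-14) and -2.40 ± 0.13 in sgLUC cells (adjusted p = 1.50e-09). Among all tested genes, 6.17% in sgYBX1 cells and 6.90% in sgLUC cells had a lower ratio. In this comparison 8 of the 9 genes passed an adjusted p of 0.05 in sgYBX1 cells and 7 of 9 in sgLUC cells, beside 84.6% and 79.6% of all tested genes for these guides, so the number of calls by itself says nothing particular about the 9 genes. In sgYBX1 cells 2 were called higher and 6 lower, beside 40.6% and 44.0% of all genes, and in sgLUC cells 2 higher and 5 lower, beside 38.2% and 41.4%. The libraries of the fractions did not overlap for 7 of 9 genes with either guide, beside 81.7% of all genes in sgYBX1 cells (38.7% higher, 42.9% lower) and 76.2% in sgLUC cells (35.8% higher, 40.5% lower). Without TMM factors the median log2 ratio of all genes moved to -1.15 in sgYBX1 and -0.93 in sgLUC cells, against -0.10 and -0.08 with them. The split of all calls was 5081 higher and 5505 lower in sgYBX1 cells with TMM and 2726 higher and 8158 lower without, and in sgLUC cells 4785 higher and 5178 lower with TMM and 2760 higher and 7495 lower without. Ratios between the fractions are therefore relative to other genes, and no absolute amount per cell was measured. Relative to the median gene, FLT3 was at -2.54 in sgYBX1 and -2.32 in sgLUC cells with TMM, and at -2.55 and -2.31 without.

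Genes with long coding sequences had lower polysomal over total ratios in these libraries as a whole. Tested genes were split into 5 classes of like size by coding length. In class 5, with 2487 bases or more, the median log2 ratio was -0.53 in sgYBX1 and -0.69 in sgLUC cells, while in class 1, with up to 744 bases, it was 0.59 in sgYBX1 and 0.74 in sgLUC cells. FLT3, with 2979 coding bases, belongs to class 5. Within that class, 9.94% of the 2484 genes in sgYBX1 cells and 12.2% in sgLUC cells had a lower ratio than FLT3. STAT5A and STAT5B, of nearly equal coding length (2382 and 2361 bases, both class 4), stood far apart, with 77.1% of their class below STAT5A and 38.5% below STAT5B in sgYBX1 cells and 78.1% and 41.2% in sgLUC cells. NRAS and SOCS2, in class 1, had 26.6% and 18.5% of their class below them in sgYBX1 cells and 29.6% and 20.3% in sgLUC cells. Over the 16 libraries, the genes whose log2 CPM was most like that of FLT3 among 9100 genes were HIPK3, which encodes a nuclear kinase, NUP98, a nuclear pore component, and NDUFS1, a subunit of respiratory complex I, with Pearson r of 0.999, 0.998 and 0.998. Their deviations from the group means gave r of 0.897, 0.881 and 0.951 with those of FLT3. The first set of values mostly repeats the gap between the fractions that all libraries share, and both are descriptions.

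**Figure D2:**
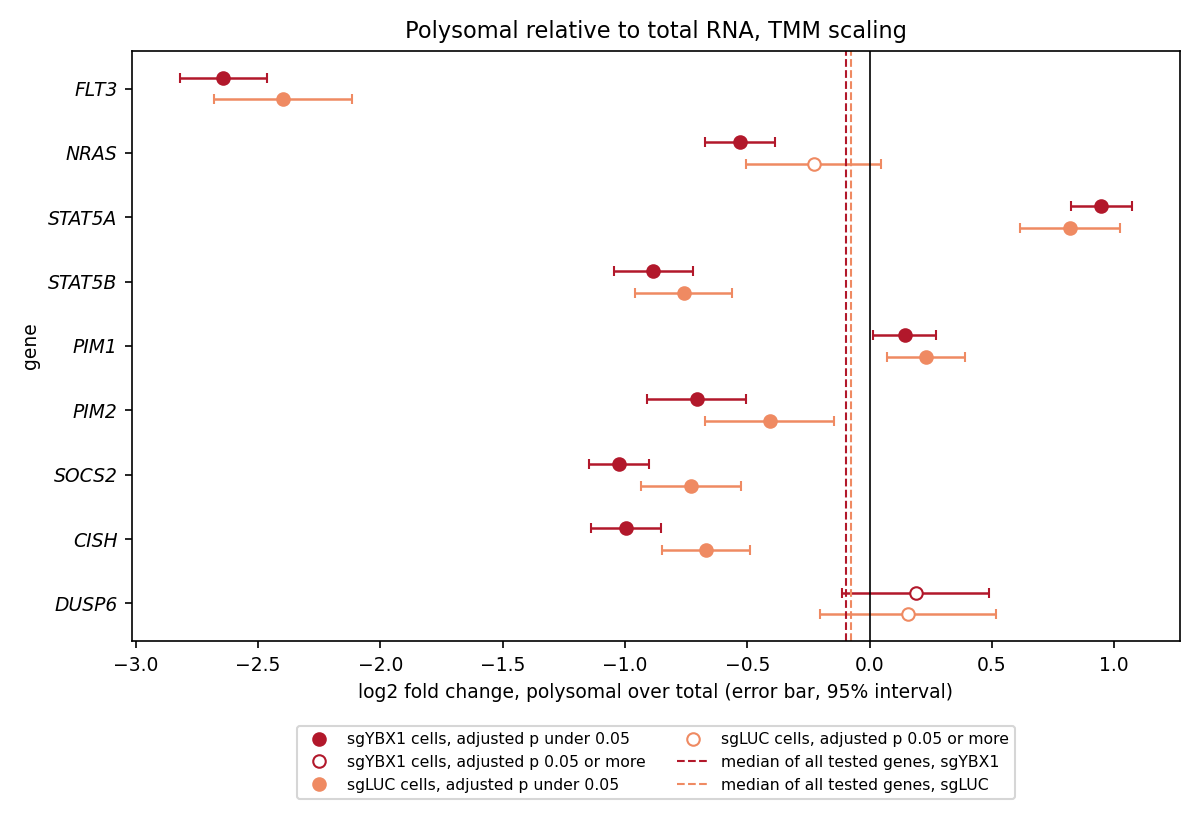
Log2 ratio of polysomal over total RNA for the 9 genes in sgYBX1 and sgLUC cells after TMM scaling, with 95% intervals, filled points for an adjusted p under 0.05 and dashed lines for the median of all tested genes. FLT3 lies at -2.64 and -2.40, STAT5A at 0.95 and 0.82 and STAT5B at -0.88 and -0.76 for sgYBX1 and sgLUC cells, and without TMM factors the values of STAT5A, PIM1 and DUSP6 fall below 0.

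With the YBX1 guide, FLT3 mRNA did not pass the test in either fraction. Its log2 fold change was -0.21 ± 0.14 in polysomal RNA (95% interval -0.49 to 0.07, adjusted p = 0.289) and 0.03 ± 0.04 in total RNA (-0.06 to 0.12, adjusted p = 0.677). Single libraries moved the polysomal value, which was -0.09 without sgLUC library 1, -0.13 without sgYBX1 library 4 and -0.30 without sgLUC library 3, and it passed in 0 of 16 alternatives (adjusted p between 0.0604 and 0.661). Polysomal sgLUC libraries 1 and 4 were the higher ones for FLT3, NRAS, PIM2, SOCS2 and DUSP6, but not for the remaining members. These libraries also had the larger TMM factors of that group, 0.798 and 0.791 against 0.744 and 0.704 in libraries 2 and 3. A larger factor by itself gives a lower CPM. The part of this in the polysomal comparisons was not tested.

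NRAS (chromosome 1, 114704469 to 114716771, minus strand) encodes a small GTPase that carries the signal of FLT3 to RAF. Its polysomal level was 44.3, 53.8, 52.0 and 46.3 CPM in sgYBX1 and 68.5, 49.2, 55.5 and 75.5 CPM in sgLUC libraries. The groups overlapped, since sgLUC libraries 2 and 3 were close to the sgYBX1 libraries. The log2 fold change was -0.34 ± 0.13 (95% interval -0.61 to -0.07), the lowest among the 9 genes in this comparison. Over all tested genes this polysomal change ran with coding length. Its median was -0.17 in class 1 (NRAS and SOCS2) and -0.09 in class 2 (PIM1, PIM2, CISH and DUSP6). In class 4 (STAT5A and STAT5B) it was 0.02, and in class 5 (FLT3) 0.15. The change of NRAS passed an unadjusted threshold of 0.05 by the edgeR quasi-likelihood test but had a Benjamini-Hochberg adjusted p of 0.0649. NRAS passed the test in 5 of 16 alternatives, among them without polysomal sgLUC library 2 (adjusted p = 0.0155) and without library 3 (adjusted p = 0.0351), and the adjusted p ranged between 0.0106 and 0.277 over them. In total RNA it stood at 70.9 ± 0.428 CPM in sgYBX1 and 72.8 ± 5.76 CPM in sgLUC libraries (log2 fold change -0.04 ± 0.05, adjusted p = 0.621). The polysomal over total ratio of NRAS was -0.53 ± 0.07 in sgYBX1 cells (adjusted p = 1.69e-06) and -0.23 ± 0.13 in sgLUC cells (adjusted p = 0.117). With the culture number as a block the sgLUC ratio passed (-0.24, adjusted p = 0.0448). Whether these ratios differ is what the change in polysomal minus total RNA tests, and that was -0.30 ± 0.15 with an adjusted p of 0.175.

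The transcription factors STAT5A and STAT5B, products of neighbouring paralogs on chromosome 17 (STAT5A 42287439 to 42311943, plus strand; STAT5B 42199177 to 42288370, minus strand), took opposite positions on polysomes. STAT5A stood at 99.0, 102, 112 and 98.3 CPM in polysomal and 54.6, 53.2, 53.3 and 52.5 CPM in total libraries of sgYBX1 cells. STAT5B stood at 38.4, 45.0, 42.8 and 34.7 CPM in polysomal and 76.1, 72.4, 75.6 and 73.0 CPM in total libraries of the same cells. Every polysomal library was above every total library for STAT5A and below it for STAT5B, and in sgLUC cells this was the same. The log2 ratio of polysomal over total RNA of STAT5A was 0.95 ± 0.06 in sgYBX1 cells (adjusted p = 1.74e-10) and 0.82 ± 0.09 in sgLUC cells (adjusted p = 2.97e-06) with TMM, but -0.10 and -0.04 without TMM factors. Relative to the median gene it was above 0 with either scaling, at 1.05 in sgYBX1 and 0.90 in sgLUC cells with TMM and 1.04 and 0.89 without. The ratio of STAT5B was -0.88 ± 0.08 in sgYBX1 cells (adjusted p = 1.06e-08) and -0.76 ± 0.09 in sgLUC cells (adjusted p = 4.57e-06).

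A ratio of 2 genes within the same library does not depend on scaling. Ratios of counts per kilobase were taken for 3 pairs of related genes, a choice made after their levels had been seen, and compared in 12 exact two-sided permutation tests. None of the 12 had an adjusted p under 0.05, the lowest being 0.0686. The STAT5A to STAT5B ratio was 3.06 ± 0.270 in polysomal and 0.853 ± 0.0144 in total RNA of sgYBX1 cells (SD, n = 4 each). It was 2.49 ± 0.0835 in polysomal and 0.834 ± 0.0600 in total RNA of sgLUC cells. The ratio was thus 3.57-fold higher on polysomes in sgYBX1 cells and 2.98-fold higher in sgLUC cells, higher in 4 of 4 libraries each time (exact permutation p = 0.0286, the smallest possible, adjusted p = 0.0686 over the 12 tests). Between the guides, the polysomal ratio ran between 2.7 and 3.36 in sgYBX1 and between 2.40 and 2.57 in sgLUC libraries without overlap, a 1.23-fold difference with the same permutation p of 0.0286 and adjusted p of 0.0686. In total RNA the guides overlapped (exact permutation p = 0.657). Reads from stretches that both paralogs share cannot be told apart by counting, and STAT5A and STAT5B counts are uncertain to that extent. With the YBX1 guide neither gene passed the test by itself. The log2 fold change was 0.15 ± 0.11 for STAT5A and -0.14 ± 0.12 for STAT5B in polysomal RNA (adjusted p = 0.403 and 0.465), and 0.02 ± 0.04 and -0.02 ± 0.04 in total RNA (adjusted p = 0.822 and 0.821).

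**Figure D3:**
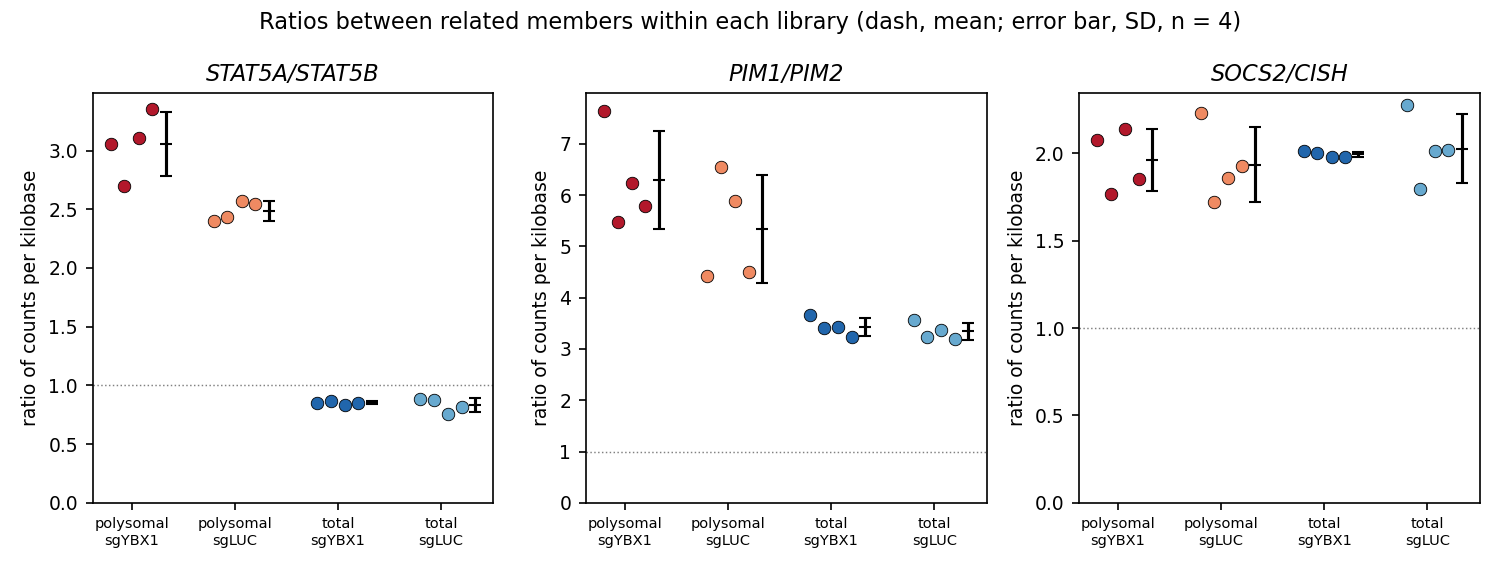
Ratio of counts per kilobase between STAT5A and STAT5B, PIM1 and PIM2, and SOCS2 and CISH in each library of the 4 groups, with dashes for means and error bars for SDs (n = 4). The STAT5A to STAT5B ratio averages 3.06 and 2.49 in polysomal RNA and stays below 1 in total RNA, whereas the SOCS2 to CISH ratio averages between 1.93 and 2.03 in all groups.

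PIM1 (chromosome 6, 37170152 to 37175428, plus strand) and PIM2 (chromosome X, 48913182 to 48919024, minus strand) encode serine/threonine kinases that promote survival and protein synthesis downstream of STAT5. PIM1 was at 128, 131, 123 and 116 CPM in polysomal sgYBX1 and 125, 127, 134 and 126 CPM in polysomal sgLUC libraries, and at 113 ± 6.96 CPM in total sgYBX1 and 109 ± 3.18 CPM in total sgLUC libraries. Its levels were close in all 4 groups. The log2 fold change with the YBX1 guide was -0.04 ± 0.11 in polysomal RNA (95% interval -0.26 to 0.18, adjusted p = 0.824) and 0.04 ± 0.04 in total RNA (-0.04 to 0.13, adjusted p = 0.530). PIM2 was at 13.05, 18.8, 15.4 and 15.7 CPM in polysomal sgYBX1 and 22.2, 15.2, 17.9 and 22.0 CPM in polysomal sgLUC libraries. The groups overlapped, and the log2 fold change of -0.29 ± 0.15 (-0.61 to 0.02) had an adjusted p of 0.179. In total RNA PIM2 was at 25.7 ± 0.304 CPM in sgYBX1 and 25.6 ± 0.756 CPM in sgLUC libraries.

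Between the fractions the kinases differed. The polysomal over total log2 ratio of PIM2 was -0.71 ± 0.10 in sgYBX1 cells (adjusted p = 3.32e-06) and -0.41 ± 0.12 in sgLUC cells (adjusted p = 0.00772). That of PIM1 was 0.14 ± 0.06 in sgYBX1 cells (adjusted p = 0.0406) and 0.23 ± 0.07 in sgLUC cells (adjusted p = 0.0106) with TMM, -0.91 and -0.62 without TMM factors, and 0.24 and 0.31 relative to the median gene. In sgYBX1 cells the PIM1 libraries of the fractions overlapped, and the call as higher stayed in 7 of 16 alternatives. It was lost in 8 and turned to a call as lower in 1, without TMM factors. Of the 8, 5 left out a library (total sgYBX1 2, 3 or 4, or polysomal sgYBX1 1 or 2, adjusted p between 0.0566 and 0.144). Within libraries, the PIM1 to PIM2 ratio was 6.29 ± 0.960 in polysomal and 3.43 ± 0.173 in total RNA of sgYBX1 cells, and 5.34 ± 1.05 in polysomal and 3.35 ± 0.168 in total RNA of sgLUC cells. It was 1.82-fold higher on polysomes in sgYBX1 cells and 1.57-fold higher in sgLUC cells, again in 4 of 4 libraries (permutation p = 0.0286, adjusted p = 0.0686). Between the guides the ratio overlapped in both fractions. The genes most like PIM1 over the 16 libraries were FHL3 (r = 0.906), ARRB1 (r = 0.895) and SPIB (r = 0.894), which encode a LIM domain protein, a beta-arrestin and an ETS transcription factor.

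SOCS2 (chromosome 12, 93569969 to 93626236, plus strand) and CISH (chromosome 3, 50606489 to 50611774, minus strand), both SOCS-family inhibitors of cytokine signalling and classical STAT5 targets, were the only members that passed the test between the guides in total RNA. CISH was at 50.3, 50.6, 50.1 and 48.4 CPM in total sgYBX1 and 41.3, 47.5, 45.4 and 44.1 CPM in total sgLUC libraries. SOCS2 was at 143, 143, 140.0 and 135 CPM in total sgYBX1 and 133, 120.2, 129 and 126 CPM in total sgLUC libraries. For both genes every sgYBX1 library was above every sgLUC library, which held for 17.6% of all tested genes in either direction and 7.53% in this one. The changes were small: the log2 fold change was 0.16 ± 0.04 for CISH, a rise of 11.95% (adjusted p = 0.0125), and 0.14 ± 0.04 for SOCS2, a rise of 10.4% (adjusted p = 0.0102). These are 2 of 9 genes, beside 15.9% of all tested genes called in this comparison (817 higher and 1169 lower with TMM, 1435 higher and 745 lower without), with 6.53% called higher and 9.34% lower. Larger log2 fold changes than those of CISH and SOCS2 were therefore not rare, since 85.7% and 83.7% of tested genes had a lower value. The call for CISH was lost without total sgLUC library 1, the lowest one (0.13, adjusted p = 0.0535), and both were lost in a fit of all 16 libraries with a single estimate of the spread (adjusted p = 0.628 for CISH and 0.837 for SOCS2), in which the larger spread of polysomal libraries enters. Of 12 tested monocytic markers, 1 rose and 3 fell in the same libraries (median log2 fold change 0.03, beside -0.01 for all tested genes). The homeobox gene HOXA9 rose by 0.22 on the log2 scale, the coreceptor CD4 fell by 0.15, and the granule enzymes LYZ and MPO fell more, LYZ to 1282 ± 20.0 CPM in sgYBX1, against 2256 ± 125 CPM in sgLUC libraries, and MPO to 62.1 ± 1.13 CPM, against 86.8 ± 1.09 CPM (log2 fold change -0.81 ± 0.04 and -0.48 ± 0.04). The remaining 8, among them CD33 and CEBPA, did not pass in total RNA. The summed level of all 13 monocytic markers ran between 2560 and 2674 CPM in total sgYBX1 and between 3433 and 3650 CPM in total sgLUC libraries, but LYZ made up the gap, since without it the sum of the other 12 was 1322 ± 45.2 CPM in total sgYBX1 and 1332 ± 28.2 CPM in total sgLUC libraries (SD, n = 4 each). In polysomal RNA 0 of the 12 tested markers rose and 4 fell (median -0.30, beside -0.03 for all tested genes). These were LYZ, MPO, CD33 (log2 fold change -0.41) and CEBPA (-0.35). Without LYZ the polysomal sum ran between 944 and 993 CPM in sgYBX1 and between 1028 and 1205 CPM in sgLUC libraries, without overlap. The part of these markers in the other results was not tested, and in bulk RNA fewer cells of a kind and less RNA per cell cannot be told apart.

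In polysomal RNA the same inhibitors did not rise. CISH was at 25.3, 26.9, 22.8 and 24.9 CPM in sgYBX1 and 28.6, 28.4, 27.2 and 27.9 CPM in sgLUC libraries, and SOCS2 at 74.0, 67.1, 68.9 and 65.1 CPM in sgYBX1 and 89.8, 68.9, 71.4 and 75.8 CPM in sgLUC libraries. Every sgYBX1 library was below every sgLUC library for CISH, whereas SOCS2 overlapped. The log2 fold changes of -0.17 ± 0.12 for CISH and -0.15 ± 0.12 for SOCS2 did not pass the test (adjusted p = 0.374 and 0.387). The medians of their coding-length classes were -0.09 for CISH and -0.17 for SOCS2. Of all 9 genes, 0 passed in polysomal RNA, where 21.2% of tested genes did, 11.3% higher and 9.93% lower (1412 higher and 1243 lower with TMM, 929 higher and 2618 lower without). Without TMM factors the median log2 fold change of all genes moved to -0.18 in polysomal RNA, against -0.03 with them, and that of the polysomal minus total change to -0.23, against -0.04. At an unadjusted p under 0.05, 1 of 9 passed by edgeR, and the DESeq2 Wald test and limma voom also called 0. CISH was the single gene without overlap, beside 22.1% of tested genes in either direction and 10.3% lower in sgYBX1.

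For CISH the change with the YBX1 guide passed the test of a difference between the fractions. The change in polysomal minus that in total RNA was -0.33 ± 0.11 on the log2 scale (95% interval -0.54 to -0.11, adjusted p = 0.0357) for CISH and -0.30 ± 0.11 (-0.53 to -0.07, adjusted p = 0.0721) for SOCS2. CISH was thus 1 of 9 called, beside 16.7% of tested genes, 9.84% higher and 6.89% lower (1232 higher and 863 lower with TMM, 677 higher and 2694 lower without). This call stood near the threshold. Its fit used 1 estimate of the spread for the quieter total and the noisier polysomal libraries. The SE of 0.11 was below the 0.12 of the polysomal change alone, so the error and adjusted p can be too small. With the culture as a block, which pairs the fractions, the call was lost (-0.33, adjusted p = 0.0720), and members called were then 0 of 9. It held in 10 of 22 alternatives, with adjusted p between 0.00550 and 0.0879 and a log2 value between -0.52 and -0.29 over all of them. Leaving out any of 9 libraries lost it, namely total sgYBX1 1, 2, 3 or 4, total sgLUC 1, 3 or 4, or polysomal sgYBX1 3 or 4, as did limma voom with a spread for each group and the fit with no filter on low counts. For the other 8 genes the polysomal change minus the total change ran between -0.30 and 0.13, and none passed. Within libraries the SOCS2 to CISH ratio stayed level, at 1.96 ± 0.177 in polysomal sgYBX1 and 1.93 ± 0.215 in polysomal sgLUC libraries, and at 1.99 ± 0.0171 in total sgYBX1 and 2.03 ± 0.198 in total sgLUC libraries. As with the other ratios, none of its 4 comparisons passed (permutation p between 0.514 and 0.886). Both genes were lower on polysomes than in total RNA, with a log2 ratio of -0.996 ± 0.07 for CISH and -1.03 ± 0.06 for SOCS2 in sgYBX1 cells and -0.67 ± 0.08 and -0.73 ± 0.09 in sgLUC cells. CISH shares 4.26% of its exonic bases with MAPKAPK3 and SOCS2 4.09% with SOCS2-AS1, both on the opposite strand, and the library kit does not mark strand.

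**Figure D4:**
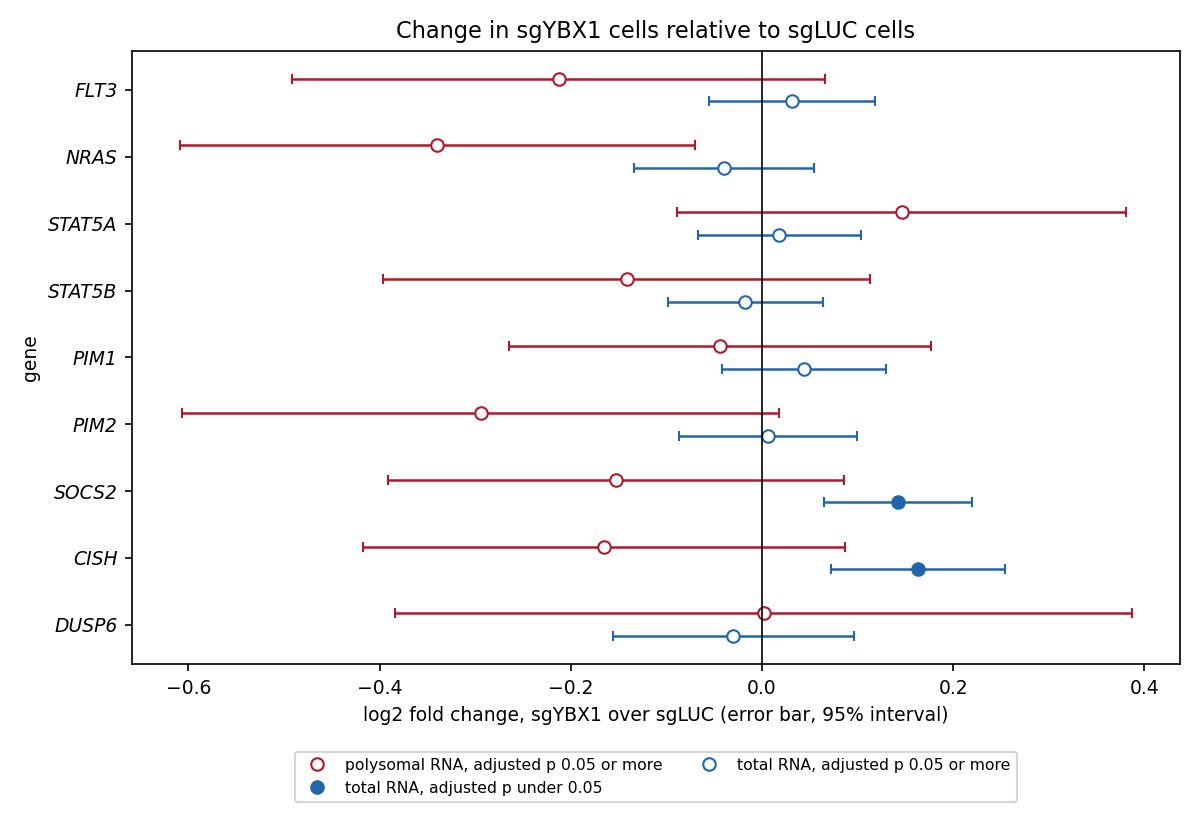
Log2 fold change of sgYBX1 over sgLUC cells for the 9 genes in polysomal and total RNA, with 95% intervals and filled points for an adjusted p under 0.05. SOCS2 at 0.14 and CISH at 0.16 in total RNA are the only filled points, and intervals in polysomal RNA are wider than in total RNA for every gene.

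The promoter of CISH is a textbook target of STAT5. Its sequence is shown because CISH passed the test in total RNA, as SOCS2 did, and also for the polysomal minus total change. That second call stood near the threshold and held in 10 of 22 alternatives. STAT dimers bind the palindromic motif TTCNNNGAA, which reads the same on both strands. Windows of 250 bases before to 50 after a start that the RefSeq promoter table lists (GRCh38.p14) were found for 8 of the 9 genes, and among these windows only that of CISH held the motif, with 4 matches. The window of STAT5B (chromosome 17, 42276342 to 42276641) lies inside the gene span given above and not at its end, so it covers an internal start, and STAT5A had 3 windows. Of all 35116 promoters of this length, 7.66% hold at least 1 match. The stretch chr3:50611875-50612018 on the minus strand, bases -244 to -101 relative to the start of CISH, holds all 4 in capitals, 5′ to 3′:

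CISH: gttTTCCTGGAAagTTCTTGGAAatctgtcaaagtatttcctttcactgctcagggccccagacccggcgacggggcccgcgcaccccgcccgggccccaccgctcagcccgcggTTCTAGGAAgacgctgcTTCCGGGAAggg

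The matches begin at bases -241, -230, -129 and -112, in 2 close pairs. A match describes the letters only, and no binding was measured. SOCS2, the other member called in total RNA, was not in the promoter table.

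DUSP6 (chromosome 12, 89347235 to 89352501, minus strand), the ERK phosphatase, was the least abundant member and the least certain. It stood at 11.7, 10.9, 18.0 and 10.8 CPM in polysomal sgYBX1 and 17.5, 9.33, 11.4 and 13.2 CPM in polysomal sgLUC libraries. Library 3 of polysomal sgYBX1 and library 1 of polysomal sgLUC stood high, and the groups overlapped. The log2 fold change of 0.00 ± 0.19 had a 95% interval of -0.38 to 0.39 (adjusted p = 0.997), so a change of this size in either direction was not detectable. Without polysomal sgYBX1 library 3 the value was -0.21 (adjusted p = 0.530). In total RNA DUSP6 was at 11.3 ± 0.434 CPM in sgYBX1 and 11.5 ± 0.657 CPM in sgLUC libraries (log2 fold change -0.03 ± 0.06, adjusted p = 0.796). The polysomal over total log2 ratio was 0.19 ± 0.14 in sgYBX1 cells (adjusted p = 0.226) and 0.16 ± 0.17 in sgLUC cells (adjusted p = 0.398), neither past the test. Without TMM factors it was -0.87 in sgYBX1 and -0.68 in sgLUC cells, and both then passed as lower (adjusted p = 2.59e-05 and 0.00447), so its sign depended on the scaling. Relative to the median gene it was 0.29 in sgYBX1 and 0.23 in sgLUC cells with TMM, and 0.28 and 0.24 without. An antisense gene, AC024909.2, covers 40.5% of the exonic bases of DUSP6, and without strand its reads cannot be told from those of DUSP6. The genes most like DUSP6 over the 16 libraries were KHDRBS1 (r = 0.827), GNG2 (r = 0.748) and TSN (r = 0.746), which encode an RNA-binding protein, a G protein subunit and a nucleic acid binding protein.

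Of the 36 pairs among the 9 genes, 28 had deviations from the group means that correlated above 0 over the 16 libraries, with a median r of 0.31. NRAS and PIM2 (r = 0.820) and FLT3 and SOCS2 (r = 0.814) were the most alike, and STAT5A and CISH (r = -0.438) the least. Libraries share their scaling, so these values are descriptions.

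Other genes of the pathway were taken from 8 lists, with 111 tested genes that are not among the 9. With the YBX1 guide, 11 of them rose and 18 fell in total RNA, 26.1% of the genes beside 15.9% of all tested genes. In polysomal RNA 11 rose and 8 fell, 17.1% beside 21.2%, and the change differed between the fractions for 21 of them, 13 towards a higher and 8 towards a lower value on polysomes, 18.9% beside 16.7%. Their median log2 fold change was -0.01 in total and -0.02 in polysomal RNA, close to those of all tested genes (-0.01 and -0.03).

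Next to the receptor, 1 of 18 adaptors and kinases rose and 5 fell in total RNA (median log2 fold change -0.04). SYK, a kinase that couples receptors to downstream signalling, fell to 194 ± 3.82 CPM in sgYBX1, against 236 ± 9.01 CPM in sgLUC libraries (adjusted p = 3.60e-06), and FES, another cytoplasmic tyrosine kinase, rose to 123 ± 3.61 CPM, against 105 ± 1.94 CPM (adjusted p = 4.93e-05). In polysomal RNA 1 of 18 rose and 0 fell (median 0.09). This was GAB2, a scaffold that links receptors to PI3K and RAS, at 5.17 ± 0.928 CPM in sgYBX1 and 2.52 ± 0.471 CPM in sgLUC libraries, a log2 fold change of 1.03 ± 0.25 (adjusted p = 0.00283). CBL, the ubiquitin ligase that takes activated receptors off the surface, had a polysomal minus total change of 0.41 ± 0.12 (adjusted p = 0.0196).

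Around NRAS, 3 of 19 tested RAS proteins and regulators rose and 2 fell in total RNA (median 0.07), and 1 rose and 3 fell in polysomal RNA (median 0.05). SHOC2, a scaffold that helps RAS activate RAF, rose in polysomal RNA to 73.1 ± 13.1 CPM in sgYBX1, against 40.0 ± 8.54 CPM in sgLUC libraries (log2 fold change 0.87 ± 0.14, adjusted p = 9.32e-05), while its total level was 44.3 ± 1.92 CPM in sgYBX1 and 43.9 ± 5.15 CPM in sgLUC libraries. RCE1, a protease that matures the tail of RAS proteins, fell in polysomal RNA to 9.13 ± 2.31 CPM, against 15.0 ± 1.37 CPM (-0.72 ± 0.17, adjusted p = 0.00312). The polysomal minus total change passed the test for both, at 0.86 ± 0.18 for SHOC2 and -0.81 ± 0.19 for RCE1. In total RNA the GTPase MRAS fell by 0.25 on the log2 scale and RASGRP2, an exchange factor, rose by 0.16.

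Of 10 RAF, MEK and ERK kinases and scaffolds, 1 rose and 0 fell in total RNA, and 0 rose and 2 fell in polysomal RNA (median -0.23, beside -0.03 for all tested genes). MAP2K1, which encodes MEK1, fell to 5.33 ± 0.879 CPM in sgYBX1, against 8.47 ± 2.32 CPM in sgLUC libraries (-0.66 ± 0.21, adjusted p = 0.0211). In total RNA KSR1, a scaffold of this cascade, rose by 0.15 on the log2 scale. Of 19 tested ERK feedback and immediate target genes, the group to which DUSP6 belongs by function, 2 rose and 3 fell in total RNA and 2 rose and 2 fell in polysomal RNA. EGR1, an immediate early transcription factor, rose in polysomal RNA to 7.22 ± 1.47 CPM, against 3.42 ± 0.692 CPM in sgLUC libraries (1.08 ± 0.22, adjusted p = 0.000847), and ETV4, an ETS factor, fell to 11.6 ± 1.08 CPM, against 18.8 ± 0.546 CPM (-0.70 ± 0.14, adjusted p = 0.000687). DUSP2, a nuclear phosphatase of the same family as DUSP6, had a polysomal minus total change of -0.57 ± 0.14 (adjusted p = 0.00931). In total RNA CCND1, which encodes cyclin D1, fell by 0.55 on the log2 scale, at low levels. It was at 2.89 ± 0.189 CPM in total sgYBX1 and 4.22 ± 0.276 CPM in total sgLUC libraries. In polysomal RNA it was at 4.46 ± 1.35 CPM in sgYBX1 and 3.31 ± 0.809 CPM in sgLUC libraries. FOSL1, an AP-1 subunit, rose in total RNA by 0.30.

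Of 8 tested JAK kinases and other STATs, 0 passed in total RNA by edgeR (3 at an unadjusted p under 0.05; no other tool was run for the lists), and 2 rose in polysomal RNA, namely STAT6 (0.51 ± 0.13, adjusted p = 0.00368) and JAK1 (0.41 ± 0.12, adjusted p = 0.0133), which transmit signals of cytokine receptors. Among 14 other cytokine signalling inhibitors, SOCS1, a close relative of SOCS2 and CISH, showed the pattern of CISH with larger values: it was at 14.9 ± 1.74 CPM in polysomal sgYBX1 and 20.9 ± 3.29 CPM in polysomal sgLUC libraries (-0.49 ± 0.15, adjusted p = 0.0154), and at 11.2 ± 0.982 CPM in total sgYBX1 and 9.24 ± 0.533 CPM in total sgLUC libraries (0.28 ± 0.07, adjusted p = 0.00578). Its polysomal minus total change was -0.78 ± 0.17 (adjusted p = 0.00292). PIAS4, a SUMO ligase that restrains STATs, rose in polysomal RNA (0.59 ± 0.14, adjusted p = 0.00205), and SH2B3, an adaptor that restrains JAK2, fell by 0.12 on the log2 scale in total RNA. In this list 1 rose and 2 fell in total RNA and 2 rose and 1 fell in polysomal RNA.

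Of 11 other STAT5-responsive genes, 4 rose and 2 fell in total RNA (median -0.03), and 0 passed in polysomal RNA by edgeR, 2 at an unadjusted p under 0.05 (median -0.20, beside -0.03). ID1, an inhibitor of differentiation factors, rose in total RNA to 4.96 ± 0.613 CPM, against 3.43 ± 0.353 CPM in sgLUC libraries, and CDC25A, a cell cycle phosphatase, fell to 50.7 ± 1.23 CPM, against 57.8 ± 1.70 CPM. OSM, which encodes the cytokine oncostatin M, had a polysomal minus total change of -0.77 ± 0.22 (adjusted p = 0.0176). Among 13 tested genes of the PI3K and AKT branch, 0 rose and 4 fell in total RNA, while 3 rose and 0 fell in polysomal RNA. PIK3R5, a regulatory subunit of PI3K, fell in total RNA by 0.23 on the log2 scale. FOXO3, a transcription factor held back by AKT, rose in polysomal RNA to 528 ± 78.1 CPM, against 376 ± 15.7 CPM (0.49 ± 0.12, adjusted p = 0.00359), and PDPK1, the kinase that activates AKT, to 228 ± 30.1 CPM, against 156 ± 39.1 CPM (0.54 ± 0.14, adjusted p = 0.00622). FOXO3 and PDPK1 have near-identical copies elsewhere in the genome, and their counts are uncertain.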

How the data were processed

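The authors deposited raw read counts per gene for 16 libraries. Their processing notes list featureCounts 2.0.1, STAR 2.7.8a, DESeq2 1.30.0 and Trimmomatic 0.36.5, with build GRCh38. Annotation, strand setting and filters are not given in the sources used here. The symbol column matched the Entrez identifier for 11 genes only, so the identifier was the key, checked against the normalised mean signal that the authors deposited (r = 0.989 over 17250 genes). Their fold change and p-value columns were not used. Of counts between 1 and 39, 63.5% in total and 60.8% in polysomal RNA were even.

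Counts were tested with edgeR 4.0.16 in R 4.3.3 (filterByExpr, TMM factors from 16 libraries, quasi-likelihood F test, Benjamini-Hochberg over 12517 genes, adjusted p under 0.05, two-sided). Each comparison was fitted on its own 8 libraries, and the polysomal minus total change on all 16 with 1 estimate of the spread. Polysomal libraries varied more, so the SE and adjusted p of that change can be too small, also for genes of the lists. Columns named input and polysome share a guide and a number, and the study lysed and fractionated its replicate cultures, so a number was taken to pair a polysomal with a total library of its guide. No source states this outright, and deviations of paired libraries correlated between -0.12 and 0.07 in sgYBX1 and between -0.18 and 0.49 in sgLUC cells. Nothing pairs the guides with each other. Fits with the number as a block were run beside the unblocked ones. In comparisons of the guides within a fraction this block joined unpaired libraries and was arbitrary. Likeness was computed on log2(CPM + 0.5), for genes averaging 5 CPM or more. Lengths and overlaps came from GENCODE. Alternatives included limma 3.58.1 and DESeq2 1.42.0. The procedure was tested on simulated data.

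The genes and lists were chosen with earlier results of these data known. Named are the 9 members, YBX1, in each list the 2 genes with the smallest adjusted p in each comparison of guides, and the 3 genes most like FLT3, PIM1 and DUSP6. Some genes that this rule names are not reported here. Marker genes named beyond these, the ratios and the libraries singled out were chosen after their values were seen.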

Additional observations from a re-analysis of the deposited data

Results flagged for a closer look

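DUSP6 stood out in a single library of 2 groups. In polysomal sgYBX1, library 3 was at 18.0 CPM, far above the other libraries of the group, of which the highest was at 11.7 CPM. In total sgLUC, library 1 was at 12.5 CPM, and the next highest at 11.3 CPM. Such gaps were looked for in 36 groups of 4 libraries, and chance alone gives about 5% of groups.

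The change of CISH with the YBX1 guide passed the test of a difference between the fractions, with polysomal minus total at -0.33 on the log2 scale. This test (edgeR, adjusted p = 0.0357) used 1 estimate of the spread for all 16 libraries, and the call held in 10 of 22 alternatives. The change of YBX1 mRNA had a polysomal minus total value of 0.33 (edgeR, adjusted p = 0.0229), since it was lower with the guide by -0.44 ± 0.11 in polysomal and -0.77 ± 0.04 in total RNA. This call held in 18 of 22 alternatives. It was lost without TMM factors (0.13, adjusted p = 0.382), without total sgYBX1 library 1 (0.32, adjusted p = 0.0518), without total sgYBX1 library 3 (0.31, adjusted p = 0.0565) and without total sgLUC library 4 (0.32, adjusted p = 0.0528). The cause of either was not tested.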

How the results depend on the processing

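Over 45 results of the 9 genes, 774 alternative values were computed; 707 kept direction and side of the threshold, 23 kept direction but lost the call, 17 kept direction and gained it, and 27 turned in sign. Of these 27, 2 also lost a call (STAT5A, polysomal over total, both guides), 2 gained one (DUSP6, the same) and 2 were called in the opposite direction (PIM1, the same), all without TMM factors. No added alternative was used.

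Genes called numbered 136 in total and 4639 in polysomal RNA with all 16 libraries in 1 fit, and 3371 for the polysomal minus total change without TMM factors. Leaving out 1 library gave 1336 to 3137 genes and 1 to 2 members in total RNA, 1724 to 2879 genes and 0 to 1 members in polysomal RNA, and 1521 to 2734 genes and 0 to 3 members for the polysomal minus total change. The lowest count in total RNA was without sgYBX1 library 3 and the highest without sgLUC library 2, and the lowest in polysomal RNA was without sgYBX1 library 4. Members called were 0 in total RNA with 1 fit of 16 libraries. In polysomal RNA they were 2 without TMM factors, 1 with no filter and 1 with 16 libraries in 1 fit. For the polysomal minus total change they were 4 without TMM factors and 0 with no filter, with limma voom and with the block.

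Without TMM factors the sign turned in total RNA for NRAS (0.0042), STAT5B (0.026) and DUSP6 (0.014), in polysomal RNA for STAT5A (-0.0066) and DUSP6 (-0.17), and for the polysomal minus total change of STAT5A (-0.066) and DUSP6 (-0.18). For polysomal over total RNA it turned in sgYBX1 cells for STAT5A (-0.10), PIM1 (-0.91), DUSP6 (-0.87) and YBX1 (-0.74), and in sgLUC cells for STAT5A (-0.036), PIM1 (-0.62) and DUSP6 (-0.68). YBX1 in sgLUC cells turned to 0.044 with DESeq2 size factors and with the DESeq2 Wald test.

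Leaving out 1 library at a time moved values across 0 for these genes. In total RNA the ranges were -0.0073 to 0.066 for FLT3, -0.0053 to 0.046 for STAT5A, -0.038 to 0.0055 for STAT5B, -0.014 to 0.020 for PIM2 and -0.051 to 0.013 for DUSP6. DUSP6 ran between -0.21 and 0.19 in polysomal RNA, between -0.17 and 0.22 for the polysomal minus total change, between -0.019 and 0.26 for polysomal over total RNA in sgYBX1 cells and between -0.029 and 0.28 in sgLUC cells, and YBX1 between -0.070 and 0.020 in sgLUC cells. None of these genes had passed the test in that comparison.

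With the replicate number as a block (the culture, for the polysomal minus total change), 1902 genes were called in total RNA, 2637 in polysomal RNA, 1968 for the polysomal minus total change, 10382 for polysomal over total RNA in sgYBX1 and 9825 in sgLUC cells. With it CISH lost its call for the polysomal minus total change (adjusted p = 0.0720), and NRAS gained one for polysomal over total RNA in sgLUC cells (adjusted p = 0.0448). The block changed no other call of the 9 genes. In total and in polysomal RNA it joined sgYBX1 with sgLUC libraries, which nothing pairs, so there it was arbitrary. DUSP6 had as few as 335 counts in a library and PIM2 413, against at least 1191 for FLT3; how far depth sets their errors was not tested.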
